A study of Helianthus annuus with 180 samples.

Results

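IAA14-like (Ha412HOChr03g0143141) is the sunflower gene whose best match in the Arabidopsis proteome is AT4G14550, INDOLE-3-ACETIC ACID INDUCIBLE14, also called SOLITARY-ROOT. It was taken by its gene ID, with earlier results of these data known, and is 1 of 46480 genes listed in the expression tables of the series. The ID places it on chromosome 3 of the Ha412HO assembly. Its level was measured by RNA-seq of polyadenylated RNA from stem peels of wild-type HA412-HO sunflowers, an inbred line, in an experiment on phototropism and another on heliotropism. All plants were 2 weeks old, each library pooled peels of 2 plants, and a peel of the first internode holds epidermis and the tissue beneath it.

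In the phototropism experiment, chamber-grown plants kept at constant temperature were placed before a blue lamp at ZT3 (ZT, hours after dawn). The lit and shaded sides of their stems were sampled at 9 time points from ZT3 to ZT21, with 6 libraries per side and time point. In the heliotropism experiment, plants that had been moved to the field as seedlings tracked the sun. The west and east sides of their stems were sampled every 4 hours over 2 days, with 3 libraries per side and time point. Both days were combined by time of day for the comparison of the sides, which gave 6 libraries per side. No mutant or transgene was involved.

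AUX/IAA proteins are short-lived nuclear repressors of the auxin response. They bind AUXIN RESPONSE FACTOR (ARF) transcription factors and bring TOPLESS co-repressors to ARF target genes. Auxin acts as a glue between an AUX/IAA protein and the receptors TIR1 and AFB, which mark the repressor for degradation and so release the ARFs. Many AUX/IAA genes are themselves ARF targets, so their transcripts rise soon after auxin does and feed back on the response. In Arabidopsis, IAA14 acts with ARF7 and ARF19 in the formation of lateral roots, and its stabilised form abolishes them. In phototropism, unequal auxin on the opposite flanks of a stem is thought to drive unequal growth. For the later bending away from the light, the study leaves the role of auxin open. For solar tracking it proposes that auxin may act at night but perhaps not by day.

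Phototropism libraries held 4485611 to 28394943 estimated counts and heliotropism libraries 5074975 to 30834562. IAA14-like was well covered, with 497 to 5831 counts in the phototropism libraries and 1034 to 7678 in the heliotropism libraries, and no library was at 0. Levels are given as CPM, a library's counts scaled to a common total, after TMM normalization, with the SD over libraries. Sides were compared with edgeR's quasi-likelihood test, adjusted over all genes tested in that comparison, and called at an adjusted p under 0.05. In bulk peels, a lower level from fewer cells of a type and one from less RNA per cell cannot be told apart. AUX/IAA genes have similar sequences, among which the read assignment can share reads.

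Under directional blue light, IAA14-like was higher on the lit than on the shaded sides from ZT15 on, by 2.07-fold to 2.66-fold, and no side difference was called at the earlier time points unless the replicate number was used as a block. The gene is among those the study displayed for this course, so its levels here are a description of that choice rather than independent support. At ZT18 the 6 shaded libraries ranged from 87.8 to 187 CPM with a median of 128 CPM, and the 6 lit libraries from 258 to 448 CPM with a median of 345 CPM. Every lit library lay above every shaded library. The log2 fold change of shaded over lit was -1.41 (95% interval -1.87 to -0.96, edgeR adjusted p = 2.11e-06), and 6.51% of the genes tested were called at ZT18. The rank by p of IAA14-like was 249 among 32644 genes.

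At ZT15 the shaded libraries ranged from 94.3 to 172 CPM (median 121 CPM) and the lit libraries from 189 to 316 CPM (median 268 CPM). At ZT21 the shaded libraries ranged from 142 to 209.8 CPM (median 175 CPM) and the lit libraries from 338 to 399 CPM (median 363 CPM). The sides did not overlap at either time point. Their log2 fold changes were -1.05 and -1.06 (standard error 0.23 at each, edgeR adjusted p = 6.10e-04 and 5.40e-04), where 7.73% and 6.22% of genes were called. In all 6 pairs of same-numbered libraries the lit side was higher at ZT15, at ZT18 and at ZT21.

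Before ZT15 the side differences were smaller and the sides overlapped. At ZT3, when the plants were placed before the lamp, the shaded libraries ranged from 80.8 to 207 CPM (median 149.9 CPM) and the lit libraries from 122 to 235 CPM (median 184 CPM). Shaded over lit gave a log2 fold change of -0.28 (interval -0.73 to 0.16, edgeR adjusted p = 1), and 0.00306% of genes, a single gene, were called. At ZT4, 1 hour later, the shaded libraries ranged from 157 to 277 CPM (median 207 CPM) and the lit libraries from 88.3 to 205 CPM (median 174 CPM). The shaded side was higher in 6 of 6 pairs, and 3 of the 6 shaded libraries lay above all lit libraries. The log2 fold change at ZT4 was 0.41 (interval -0.04 to 0.85, edgeR adjusted p = 0.310), with 10.8% of genes called. With the replicate number as a block, it was 0.46 and passed the test (edgeR adjusted p = 0.0301).

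From ZT5 to ZT9 no side difference of IAA14-like was called. At ZT5 the shaded side averaged 189.7 ± 48.5 CPM (SD, n = 6) and the lit side 148 ± 40.2 CPM, a log2 fold change of 0.36 (edgeR adjusted p = 0.343). At ZT7 the lit libraries spread widely, from 79.9 to 332 CPM, around a mean of 175 ± 92.0 CPM, against 161 ± 60.5 CPM on the shaded side. Neither side passed the test as the higher one at ZT7 (log2 fold change -0.12, interval -0.56 to 0.33, edgeR adjusted p = 0.780), and each side was higher in 3 of the 6 pairs. The means at ZT9 were 174 ± 34.2 CPM shaded and 161 ± 41.3 CPM lit, with a log2 fold change of 0.11 (edgeR adjusted p = 0.812). ZT5, ZT7 and ZT9 were times at which 14.1%, 23.3% and 22.3% of genes were called, and at ZT7 and ZT9 called side differences were more common among all genes than at any other time point.

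At ZT12 the lit side had the higher mean and median, and the sides still overlapped. The shaded libraries ranged from 107 to 193 CPM (median 131 CPM) and the lit libraries from 149 to 289 CPM (median 197 CPM). Lit was higher in 5 of 6 pairs, and 4 of the 6 shaded libraries lay below all lit ones. The log2 fold change was -0.55 (interval -0.99 to -0.10), with an edgeR adjusted p = 0.0836 without the pairs and 0.00552 with the replicate number as a block, and 16.7% of genes were called without the block.

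**Figure D1:**
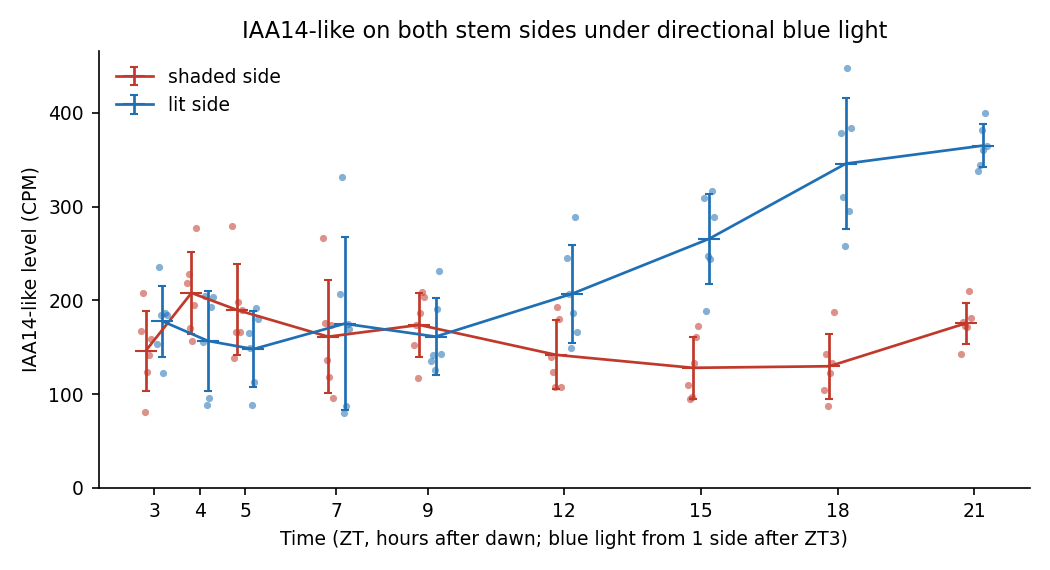
IAA14-like level in CPM (vertical axis) against time in ZT hours (horizontal axis) for the shaded and lit sides under directional blue light. Points are the 6 libraries per side and time point, bars the mean and SD. The sides overlap up to ZT12 and separate at ZT15, ZT18 and ZT21, where the lit mean reaches 365 CPM at ZT21 and the shaded mean stays at 176 CPM or below.

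The later side difference came with a change on the lit side. The lit level changed over the 9 time points (edgeR adjusted p = 1.81e-09, where 55.3% of genes were called) and was 2.14-fold higher at ZT18 than at ZT9 (log2 1.10, standard error 0.23, edgeR adjusted p = 1.21e-04, 15.6% of genes called). On the shaded side the same step gave a log2 fold change of -0.42 (edgeR adjusted p = 0.188, 20.8% of genes called). The shaded level over all time points passed the test narrowly (edgeR adjusted p = 0.0475, 47.1% of genes called) and no longer did so when any 1 replicate number was left out (edgeR adjusted p = 0.0527 to 0.172). From ZT3 to ZT4 neither side passed the test. The log2 fold change of that step was 0.51 shaded (edgeR adjusted p = 0.242, 3.65% of genes called) and -0.18 lit (edgeR adjusted p = 0.671, 17.9% of genes called).

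The change of the side difference over time was tested directly. The interaction of side and time passed the test (edgeR adjusted p = 7.52e-07), as it did for 19.0% of genes. The shaded over lit difference at ZT15 minus that at ZT4 was -1.46 on the log2 scale (standard error 0.32, edgeR adjusted p = 0.00124), where 5.24% of genes were called.

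Ordered by mean level, the 18 groups of the phototropism experiment spanned 2.85-fold, from 365 ± 23.0 CPM on the lit side at ZT21 to 128 ± 33.3 CPM on the shaded side at ZT15. The 3 highest groups were the lit sides at ZT21, ZT18 and ZT15, at 365, 346 and 266 CPM. Lit ZT21 and ZT18 did not differ beyond their spread, while the steps from ZT18 to ZT15 and from ZT15 to the next group exceeded the larger SD of the neighbours. That next group was the shaded side at ZT4, with 208 ± 43.5 CPM. From there down to the lowest group, all 14 steps were smaller than the spread.

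In solar tracking plants of the field, IAA14-like was higher on the west sides at ZT12 and ZT16 and higher on the east sides at ZT8. The ZT16 difference, 2.55-fold, was the widest of the 6 times of day. At ZT16 of the first day the west libraries were at 253, 248 and 284 CPM and the east libraries at 107.8, 117 and 129.8 CPM. At ZT16 of the second day the west libraries were at 233, 254 and 256 CPM and the east libraries at 72.9, 93.5 and 77.4 CPM. On both days every west library lay far above every east library. Over both days the log2 fold change of west over east was 1.35 (interval 1.06 to 1.65, edgeR adjusted p = 1.43e-09), with 5.78% of genes called at ZT16. By p, IAA14-like ranked 8 among 34315 genes. Alone, the first day gave a log2 fold change of 1.15 and the second 1.61.

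The west lead was already there 4 hours earlier. On the first day at ZT12 the west libraries were at 125, 169 and 212 CPM and the east libraries at 106, 94.7 and 119 CPM. A day later they were at 194, 185 and 206 CPM and at 118, 132 and 106 CPM. The sides did not overlap within either day, and over both days 5 of the 6 west libraries lay above all east ones. The west sides were higher by 1.62-fold (log2 0.69, standard error 0.15, edgeR adjusted p = 0.00297), where 1.79% of genes were called. The call was lost on the first day alone (edgeR adjusted p = 0.0631) and without the libraries numbered 2 or 3 (edgeR adjusted p = 0.102 and 0.121), at log2 fold changes of 0.66, 0.72 and 0.58. It held with the replicate block (edgeR adjusted p = 1.58e-04), by DESeq2 (adjusted p = 4.13e-04) and on the second day alone (edgeR adjusted p = 0.00914).

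At ZT8 the sides stood the other way round. The west libraries of the first day were at 83.2, 89.7 and 83.0 CPM and the east libraries at 96.0, 124 and 101 CPM. Those of the second day were at 96.7, 108.2 and 113 CPM on the west and 184, 164 and 163 CPM on the east. East was higher within both days without overlap. The log2 fold change of west over east was -0.53 (standard error 0.15, edgeR adjusted p = 0.0417), just past the threshold, and 1.57% of genes were called. It did not pass on the first day alone (log2 -0.32, edgeR adjusted p = 0.647), in a fit of the ZT8 libraries only (edgeR adjusted p = 0.144) or without any 1 replicate number (edgeR adjusted p = 0.161 to 0.418). East was higher in 6 of 6 same-numbered pairs. The difference passed with the replicate block (edgeR adjusted p = 0.00634), by DESeq2 (adjusted p = 0.0164) and on the second day alone (edgeR adjusted p = 0.0246).

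At ZT4 east was also higher in every same-numbered pair of a day, but the difference did not pass the test. The west libraries of the first day were at 104, 116.8 and 85.3 CPM and the east libraries at 156, 147 and 117.2 CPM. The second day gave 132, 158 and 136 CPM on the west and 174, 189.7 and 157 CPM on the east. The highest west and lowest east libraries all but met on the first day and overlapped on the second. West over east was -0.36 on the log2 scale (interval -0.66 to -0.07, edgeR adjusted p = 0.541), at a time when only 0.152% of all genes were called.

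Around dawn the sides were alike in mean. At ZT0 the west libraries were at 252, 319 and 231 CPM on the first day and 236, 288 and 204 CPM on the second. The east libraries were at 209.7, 271 and 236 CPM and at 219, 269 and 276 CPM. The sides overlapped on both days. West over east gave 0.05 on the log2 scale (interval -0.24 to 0.34, edgeR adjusted p = 0.984), and 0.0554% of genes were called.

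ZT20 lay between the night and the dawn pattern. The west libraries were at 196, 225 and 206 CPM on the first day and 321, 250.2 and 199 CPM on the second, and the east libraries at 207, 175 and 212 CPM and at 133, 224 and 155 CPM. The sides overlapped on both days. Their log2 fold change was 0.34 (interval 0.05 to 0.63, edgeR adjusted p = 0.225), with 3.54% of genes called. On the second day alone it was 0.59 and passed the test (edgeR adjusted p = 0.0236), against 0.08 on the first (edgeR adjusted p = 0.972).

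**Figure D2:**
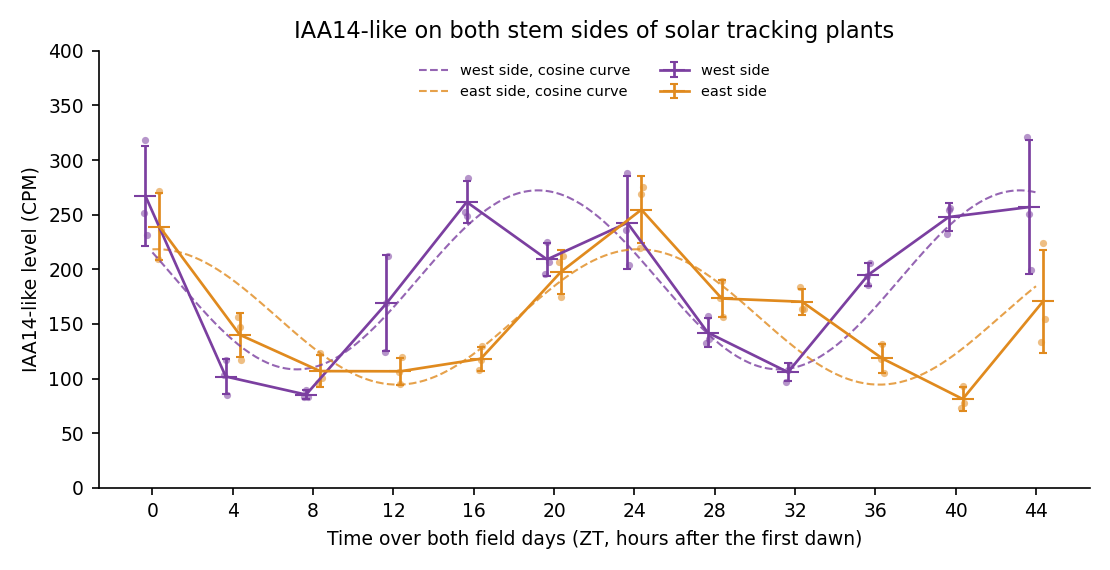
IAA14-like level in CPM (vertical axis) against time over both field days (horizontal axis, ZT hours after the first dawn) for the west and east sides. Points are the 3 libraries per side and time point, bars the mean and SD, dashed lines the 24-hour cosine curves fitted to each side. West lies above east at ZT12 and ZT16 of both days, and east lies above west at ZT8 of both days.

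The level changed over the day on both sides (edgeR adjusted p = 5.51e-15 on the west and 5.55e-12 on the east), as it did for 74.0% and 73.6% of genes. On the west the lowest level fell at ZT8, at 95.6 ± 12.6 CPM (n = 6), and on the east at ZT16, at 99.7 ± 22.4 CPM. Both sides were highest at ZT0, at 255 ± 41.8 CPM on the west and 247 ± 28.9 CPM on the east, and the west mean at ZT16 (255 ± 16.7 CPM) was as high. Ordered by mean level, the 12 groups of side and time of day spanned 2.67-fold. Of the 11 steps in that order, only the one between the west side at ZT20 (233 CPM) and the east side at ZT20 (184 CPM) exceeded the larger SD of its neighbours.

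The interaction of side and time of day passed the test (edgeR adjusted p = 6.35e-10), where 10.7% of genes were called. The interaction of day and side over the 6 times of day did not (edgeR, adjusted p = 1, with an unadjusted 0.0540), and 0% of genes were called for it, with 866 genes at an unadjusted p under 0.05.

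A cosine curve of 24 hours was fitted to the CPM of each side. The west curve had a mean of 190.3 CPM, an amplitude of 81.9 ± 9.45 CPM (standard error, n = 36) and its peak 19.2 ± 0.44 hours after dawn (q = 2.14e-08). On the east the mean was 156 CPM, the amplitude 62.0 ± 8.32 CPM and the peak 0.20 ± 0.51 hours after dawn (q = 3.47e-07). The curve accounted for 69.5% of the variance on the west and 62.7% on the east. A rhythm by itself did not set the gene apart, as 69.6% of genes were rhythmic on the west and 74.0% on the east.

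The 2 rhythms differed from each other. The east peak came 5.01 hours after the west peak (standard error 0.68 hours), and the cosine and sine terms differed between the sides (limma adjusted p = 1.16e-06), as they did for 6.28% of genes. By day, the west peak stayed at 19.2 hours after dawn on both, while the east peak was at 22.8 hours on the first day and 1.57 hours on the second. The lag was thus 3.62 hours (standard error 0.87 hours, limma adjusted p = 0.0706) and 6.399 hours (standard error 0.89 hours, limma adjusted p = 0.00199). The highest sampled west levels, at ZT0 and ZT16, stood on either side of the fitted west peak.

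**Figure D3:**
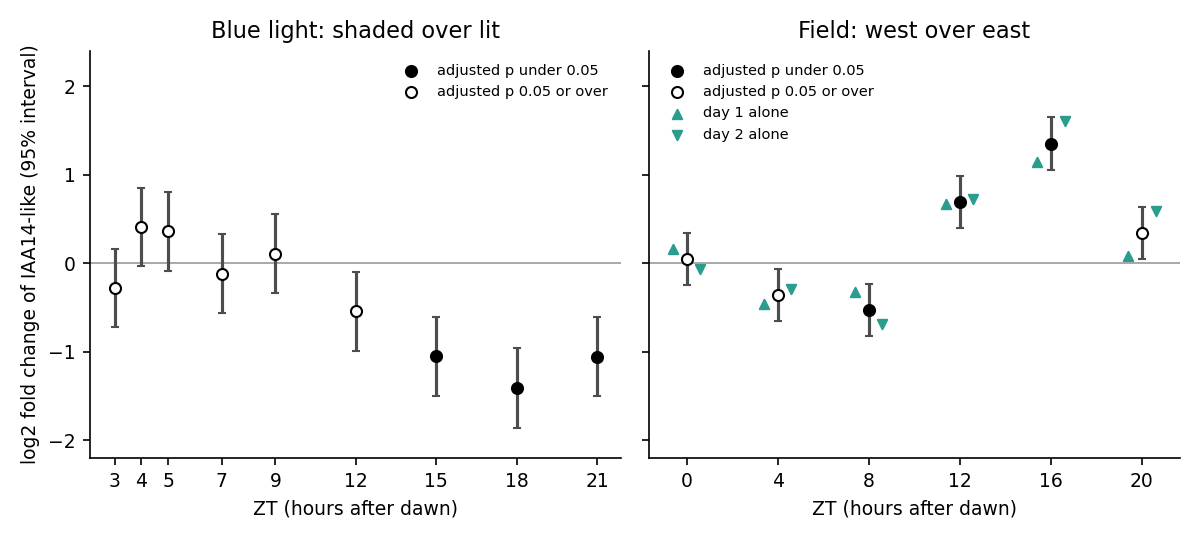
Log2 fold change of IAA14-like between the stem sides (vertical axis) by ZT hour (horizontal axis), shaded over lit under blue light on the left and west over east in the field on the right. Circles are the fitted values with 95% intervals, filled where the adjusted p was under 0.05, and triangles are the field days taken singly. Values fall to -1.41 at ZT18 under blue light and rise to 1.35 at ZT16 in the field.

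The other AUX/IAA homologs were taken from a list of 21 genes that holds IAA14-like and was drawn from excerpts of the study's annotation tables. These favour genes that changed in these samples, so the counts are not independent evidence of a direction. In phototropism, 19 members were tested, IAA14-like included. At ZT3 none was called by edgeR or DESeq2, and none had an unadjusted p under 0.05. At ZT4, 7 were higher shaded and 1 higher lit, or 42.1% of the list beside 10.8% of all genes. With the replicate block they were 11 and 1, and the block raised the share of all genes to 20.8%. The list had a median of 0.53 on the log2 scale against -0.03 over all genes. IAA3-like Ha412HOChr15g0697381 was at 2.31-fold the lit level (53.1 and 23.0 CPM, log2 1.205, edgeR adjusted p = 5.10e-11) and IAA4-like Ha412HOChr01g0004341 at 3.15-fold (30.97 and 9.80 CPM, log2 1.65, edgeR adjusted p = 1.17e-07). IAA14-like was thus not among the members called at ZT4 unless the block was used. IAA16-like Ha412HOChr16g0750251 was the member higher on the lit side, at 20.96 against 6.78 CPM (log2 -1.63, edgeR adjusted p = 1.13e-04).

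Counts between ZT5 and ZT12 leaned to the shaded side at first and then evened out. They were 7 higher and 1 lower on the shaded side at ZT5, 6 and 3 at ZT7, 4 and 3 at ZT9, and 2 and 3 at ZT12. These were 42.1%, 47.4%, 36.8% and 26.3% of the list, beside 14.1%, 23.3%, 22.3% and 16.7% of all genes. With the replicate block the counts became 11 and 2 at ZT5, 10 and 3 at ZT7, 8 and 3 at ZT9, and 4 and 5 at ZT12, where 26.4%, 37.3%, 36.7% and 31.7% of all genes were called.

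From ZT15 on, the members called, IAA14-like among them, were mostly higher on the lit side. At ZT15 the counts were 10 lower and 0 higher on the shaded side, or 52.6% of the list beside 7.73% of all genes (11 and 1 with the block, which called 6532 of all 32644 genes), with a list median of -0.70 on the log2 scale, or -0.57 without IAA14-like. They were 8 and 1 at ZT18 and 6 and 1 at ZT21, or 47.4% and 36.8% of the list beside 6.51% and 6.22% of all genes. The block gave 11 and 2 at ZT18 and 10 and 2 at ZT21, with 17.4% and 17.5% of all genes called. The exception at both times was IAA8-like Ha412HOChr12g0566851, at 56.6 CPM shaded and 44.01 CPM lit at ZT18 (log2 0.36, edgeR adjusted p = 0.00674). An IAA19-like gene, Ha412HOChr16g0750271, had a larger fold change than IAA14-like at ZT15, at 2.10 CPM shaded and 21.1 CPM lit (log2 -3.32, standard error 0.54, edgeR adjusted p = 2.25e-06). IAA3-like Ha412HOChr12g0569921 had nearly the same fold change as IAA14-like at that time, with 51.0 and 106 CPM (log2 -1.05, edgeR adjusted p = 1.24e-06).

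Some members changed sides between ZT4 and ZT15 and others did not. IAA3-like Ha412HOChr15g0697381 was higher on the shaded side at ZT4 and higher on the lit side at ZT15 (32.4 CPM shaded, 59.7 CPM lit, log2 -0.88, edgeR adjusted p = 1.61e-06). IAA16-like Ha412HOChr16g0750251 was higher on the lit side at both (4.83 CPM shaded and 20.3 CPM lit at ZT15, log2 -2.08, edgeR adjusted p = 3.16e-06).

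In the field, 20 members were tested, and their called side differences gathered at ZT12 and ZT16. At ZT12, 10 were higher on the west and 0 on the east, or 10 of the 20 tested beside 1.79% of all genes, with a list median of 0.48 on the log2 scale against 0.02 over all genes. At ZT16 the counts were 8 and 1 (45.0% beside 5.78%), with a median of 0.41. IAA14-like was counted on the west at both times, and without it the list median was 0.41 at each. At ZT12 the strongest call was that of IAA19-like Ha412HOChr16g0750271, with 56.8 CPM on the west and 0.675 CPM on the east (log2 6.46, standard error 0.39, edgeR adjusted p = 2.80e-20). This gene stood at 29.8 and 2.59 CPM at ZT16 (log2 3.48, edgeR adjusted p = 1.14e-11). The member higher on the east at ZT16 was IAA27-like Ha412HOChr09g0427781, at 25.8 CPM west and 36.6 CPM east (log2 -0.51, edgeR adjusted p = 0.00397). By fold, IAA14-like ranked behind 3 of the other members higher on the west at ZT16, which were 2 of the 3 IAA19-like genes (Ha412HOChr16g0750271 and Ha412HOChr12g0543321) and an IAA17-like gene, Ha412HOChr04g0147921 (1.84 and 0.527 CPM, log2 1.71, edgeR adjusted p = 4.06e-04).

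At the other field times few members were called. The counts, west higher and east higher, were 0 and 0 at ZT0, 0 and 1 at ZT4, 2 and 1 at ZT8, and 1 and 0 at ZT20, where 0.0554%, 0.152%, 1.57% and 3.54% of all genes were called. At ZT0, 4 members had an unadjusted edgeR p under 0.05 and DESeq2 called 0. IAA14-like was the member higher on the east at ZT8, when IAA16-like Ha412HOChr16g0750251 was higher on the west (16.1 and 8.95 CPM, log2 0.88, edgeR adjusted p = 0.00568). The member higher on the east at ZT4 was IAA3-like Ha412HOChr04g0178131, at 29.8 CPM west and 40.6 CPM east (log2 -0.45, edgeR adjusted p = 0.0419).

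**Figure D4:**
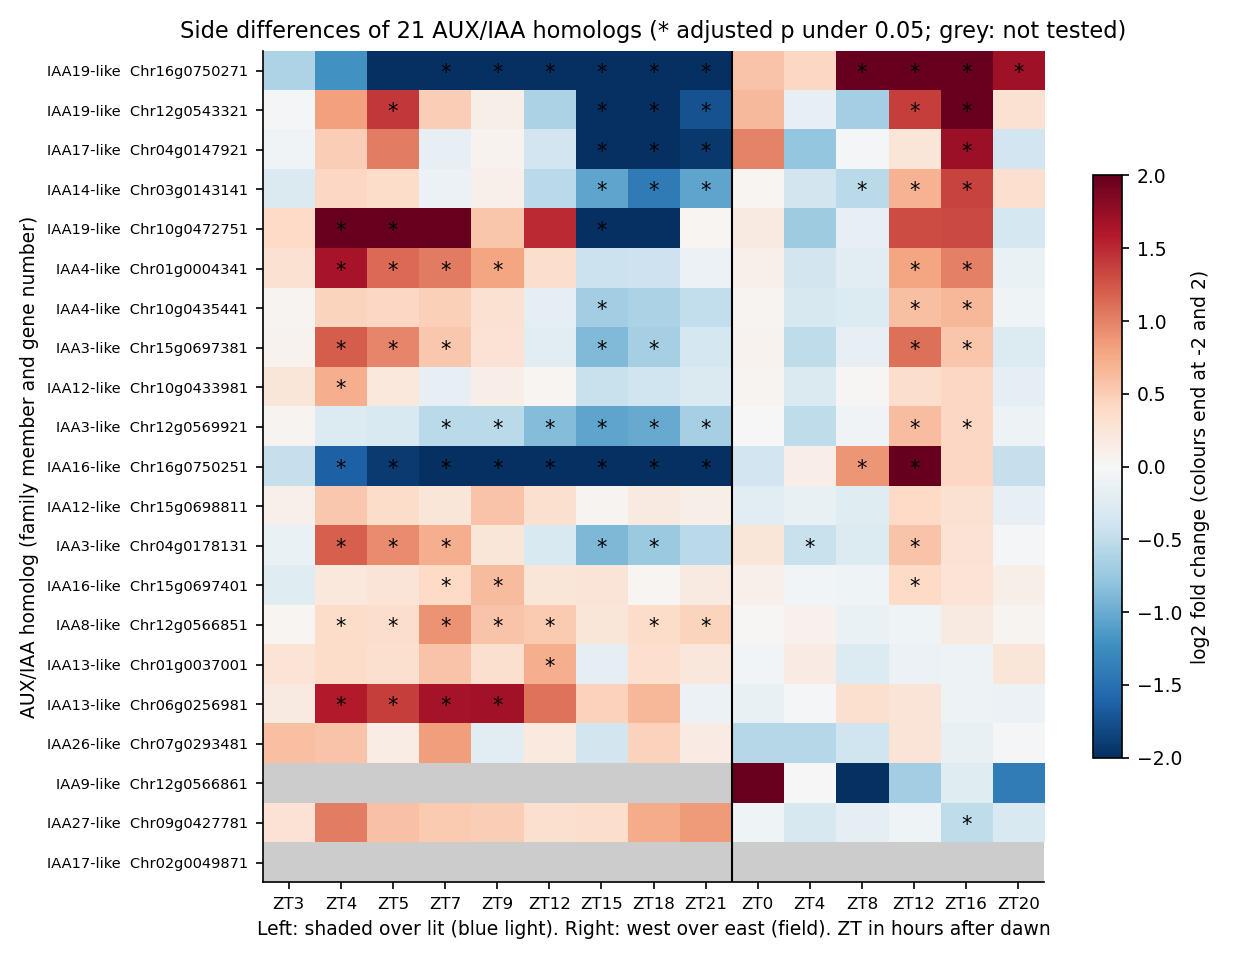
Log2 fold changes of 21 AUX/IAA homologs (rows, by family member and gene number) between the stem sides at each ZT (columns), shaded over lit to the left of the black line and west over east to the right. Stars mark an adjusted p under 0.05 and grey cells were not tested. Most stars at ZT15 under blue light are blue (10 lower on the shaded side), and most at ZT12 in the field are red (10 higher on the west).

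The partners and upstream steps of AUX/IAA action were described with lists drawn in the same way. Among 5 receptor homologs, 3 were higher on the shaded side at ZT4, when 10.8% of all genes were called (20.8% with the replicate block), led by TIR1-like Ha412HOChr15g0721201 (110.0 and 53.8 CPM, log2 1.03, edgeR adjusted p = 7.32e-12). At ZT15, when 7.73% of all genes were called, AFB5-like Ha412HOChr05g0244501 was the only 1 of the 5 called. This AFB5-like gene was higher on the shaded side (40.5 and 31.8 CPM, log2 0.35, edgeR adjusted p = 0.0365), unlike IAA14-like. In the field the TIR1-like gene was the only 1 of the 5 called at ZT16, when 5.78% of all genes were called. Its levels were 214 CPM west and 162 CPM east (log2 0.40, edgeR adjusted p = 0.00944). Another AFB5-like gene, Ha412HOChr04g0165681, was lower on the west at ZT8 (50.5 and 66.1 CPM, log2 -0.39, edgeR adjusted p = 3.01e-05) and at ZT12 (51.6 and 69.9 CPM, log2 -0.44, edgeR adjusted p = 1.23e-06). Of 19 ARF homologs, 8 were higher on the shaded side at ZT4 and 6 higher on the lit side at ZT15, with none the other way. Beside these stood 10.8% and 7.73% of all genes called. In between, the counts, shaded higher and lit higher, were 2 and 3 at ZT5 and 0 and 6 at ZT7. They were 1 and 3 at ZT9 and 0 and 7 at ZT12. From ZT5 to ZT12, 14.1%, 23.3%, 22.3% and 16.7% of all genes were called. The lean of the ARF calls to the lit side was thus there at ZT7, when IAA14-like was not called. With the replicate block, 10 were higher on the lit and 1 on the shaded side at ZT15, when 6532 of all 32644 genes were called. ARF16-like Ha412HOChr02g0082371 led the calls without the block at ZT4 and ZT15, with 20.2 CPM shaded and 5.36 CPM lit at ZT4 (log2 1.89, edgeR adjusted p = 5.96e-06) and 9.18 and 26.1 CPM at ZT15 (log2 -1.51, edgeR adjusted p = 5.56e-04). It was also higher on the west at ZT16, at 23.6 and 11.4 CPM (log2 1.04, edgeR adjusted p = 0.00143), and lower on the west at ZT20, at 10.6 and 21.9 CPM (log2 -1.04, edgeR adjusted p = 0.00350). The field counts of the ARF list, west higher and east higher, were 2 and 2 at ZT12, 2 and 1 at ZT16 and 0 and 2 at ZT20, when 1.79%, 5.78% and 3.54% of all genes were called. Most strongly called at ZT12 was ARF8-like Ha412HOChr15g0717941, lower on the west (99.7 and 163 CPM, log2 -0.70, edgeR adjusted p = 1.23e-06).

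Among 8 TOPLESS co-repressor homologs, 1 was higher and 1 lower on the shaded side at ZT15 (25.0% of the list beside 7.73% of all genes), and 0 were called at field ZT16 by edgeR, where 2 had an unadjusted p under 0.05 and DESeq2 called 1. TPL-like Ha412HOChr05g0239361 was the one higher on the shaded side at ZT15 (62.2 and 35.6 CPM, log2 0.80, edgeR adjusted p = 1.05e-04). SAUR genes are early auxin targets, many of which promote cell expansion. Of 17 SAUR homologs tested in phototropism, 6 were higher on the shaded side at ZT4 and 3 higher on the lit side at ZT15 (4, and 1 on the shaded side, with the block), and 5 of the 18 tested in the field were higher on the west at ZT16. These were 35.3%, 17.6% and 27.8% of the genes tested in the list, beside 10.8%, 7.73% and 5.78% of all genes. At field ZT16 the widest west lead among them was that of Ha412HOChr07g0303111, with 4.02 and 1.27 CPM (log2 1.64, edgeR adjusted p = 1.12e-04). At field ZT4, ZT8 and ZT12 the SAUR counts, west higher and east higher, were 0 and 1, 2 and 2, and 2 and 1. Beside these stood 0.152%, 1.57% and 1.79% of all genes. Ha412HOChr16g0802041 had the largest fold change of the list at ZT8, on the east (3.66 CPM west, 20.2 CPM east, log2 -2.47, edgeR adjusted p = 4.92e-09).

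Synthesis and inactivation of auxin are represented by few, weakly expressed genes. YUC8-like Ha412HOChr15g0698881, a homolog of an auxin synthesis enzyme, was higher on the shaded side at ZT4, at 0.683 and 0.0662 CPM (edgeR adjusted p = 9.61e-04). It was called higher on the shaded side at each later time point as well, with 0.287 CPM shaded and all lit libraries at 0 at ZT15 (edgeR adjusted p = 0.00123), 0.0997 CPM and 0 at ZT18 (edgeR adjusted p = 0.0326), and 0.284 and 0.0409 CPM at ZT21 (edgeR adjusted p = 0.0472). At these 3 times IAA14-like was higher on the other side. DESeq2 called YUC8-like at ZT4, ZT9 and ZT15 (adjusted p = 0.00174, 8.59e-04 and 0.00360). It did not call it at ZT18 or ZT21 (adjusted p = 0.136 and 0.0907), and gave no adjusted p at ZT5, ZT7 and ZT12. GH3.1-like Ha412HOChr10g0459271, a homolog of an enzyme that conjugates auxin to amino acids, was called lower on the shaded side at ZT4 (0.366 and 7.35 CPM, edgeR adjusted p = 0.0181) and at ZT15, where all its shaded libraries were at 0 and the lit mean was 1.26 CPM. It was also called at ZT21, with the shaded libraries at 0 and a lit mean of 0.923 CPM (edgeR adjusted p = 0.0396). The ZT15 call held with the replicate block and by DESeq2. That at ZT4, where the lit SD was 7.23 CPM, held with the block but not by DESeq2 (adjusted p = 0.119). That at ZT21 held by DESeq2 but not with the block (edgeR adjusted p = 0.0972). Of the 4 conjugation genes, 0 were higher and 2 lower on the shaded side at ZT4, and 1 was higher and 1 lower at ZT15. Beside these stood 10.8% and 7.73% of all genes called. None of the 4 conjugation genes and neither of the 2 synthesis genes tested was called by edgeR or DESeq2 at field ZT12 or ZT16. None of them had an unadjusted p under 0.05, at times when edgeR called 1.79% and 5.78% of all genes.

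PIN-FORMED (PIN) proteins carry auxin out of cells, and their placement sets the direction of its flow. PIN7-like Ha412HOChr01g0035481 was higher on the lit side at ZT15, at 7.402 CPM shaded and 47.2 CPM lit (log2 -2.67, standard error 0.36, edgeR adjusted p = 1.77e-08), and at ZT18 (log2 -3.15) and ZT21 (log2 -2.10), and less widely at ZT12 (log2 -0.96, edgeR adjusted p = 0.0375). Before that it was called higher on the shaded side at ZT5 (log2 1.27, edgeR adjusted p = 0.00412), and at ZT4 its log2 fold change was 0.94 (edgeR adjusted p = 0.0541). In the field it was higher on the west at ZT12 (23.6 and 4.97 CPM, log2 2.24, edgeR adjusted p = 1.77e-08) and at ZT16 (57.4 and 10.7 CPM, log2 2.39, edgeR adjusted p = 5.24e-10). It was higher on the east at ZT4 (17.5 and 37.7 CPM, log2 -1.11, edgeR adjusted p = 0.0261). Of the 15 transport homologs, 3 were called at ZT15, all higher on the lit side (7, and 1 on the shaded side, with the block). At field ZT16, 3 were called, with 1 higher on the west and 2 on the east (3 and 2 with the block). Beside these 3 of 15 stood 7.73% and 5.78% of all genes. With the block these were 6532 of 32644 at ZT15 and 4289 of 34315 at field ZT16. At ZT4 and again at ZT5, 5 of the 15 were higher and 1 lower on the shaded side (8 and 1 with the block). Without the block 10.8% and 14.1% of all genes were called, and with it 20.8% and 26.4%. PIN4-like Ha412HOChr17g0853211 had the largest fold change of the list at ZT4, on the shaded side (104 and 41.8 CPM, log2 1.31, edgeR adjusted p = 1.07e-09). A different PIN4-like gene, Ha412HOChr12g0547581, went the other way at ZT5, with 57.4 CPM shaded and 156 CPM lit (log2 -1.44, edgeR adjusted p = 5.56e-13).

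Likeness of pattern was measured as Pearson's r between group means of log2 CPM, over the 15613 genes that averaged 10 CPM or more in both experiments. The groups share the time of day and the normalization, so the values are a description. Over the 18 phototropism groups, MLO4-like Ha412HOChr15g0722901 came first (r = 0.92), and it ranked 11 over the 24 field groups (r = 0.84). MLO4 of Arabidopsis is a membrane protein that acts in root curling on touch. ATPK7-like Ha412HOChr15g0708191, a homolog of a D6 protein kinase, ranked 4 in phototropism (r = 0.86) and 36 in the field (r = 0.80). Only 1 gene had an r over 0.9 in phototropism and 0 did in the field.

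Over the field groups, PIN7-like came second (r = 0.87) after Ha412HOChr09g0373311 (r = 0.89), and it ranked 32 in phototropism (r = 0.76). The first field gene did not share the phototropism course (r = -0.02). The other first 5 in phototropism were Ha412HOChr15g0740291, Ha412HOChr05g0200981 and Ha412HOChr13g0607751 (r = 0.90, 0.88 and 0.85), which had an r of -0.07, 0.54 and 0.41 in the field. In the field they were Ha412HOChr04g0172431, Ha412HOChr10g0448611 and Ha412HOChr10g0470881 (r = 0.86, 0.85 and 0.85), with an r of -0.31, 0.32 and -0.02 in phototropism. Of the AUX/IAA homologs that reached this level, IAA3-like Ha412HOChr15g0697381 was the most alike in both experiments (r = 0.67 and 0.80).

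MLO4-like and ATPK7-like were picked for their likeness over these same groups, so their side differences are a description. MLO4-like had a log2 fold change of shaded over lit of -1.13 at ZT15 and of west over east of 0.98 at ZT16, and for ATPK7-like the values were -0.82 and 0.55. At ZT4 that of ATPK7-like was 0.76.

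Markers of the tissues in a peel were summed to compare the sides. All 10 epidermis, 9 xylem and 3 phloem homologs were detected, and their defining members ATML1, CESA8 and SUC2 were not at 0. At ZT15 the summed phloem markers ranged from 193 to 225 CPM shaded and from 202 to 320 CPM lit, and SUC2-like Ha412HOChr04g0163651 was lower on the shaded side (78.5 and 123 CPM, log2 -0.65, edgeR adjusted p = 0.0401). The same gene was lower there at ZT12 (80.2 and 134 CPM, log2 -0.74, edgeR adjusted p = 0.00799) and at ZT9 (85.2 and 125 CPM, log2 -0.55, edgeR adjusted p = 0.0460). It was the only 1 of the 3 phloem markers called at ZT9, ZT12 and ZT15, where 22.3%, 16.7% and 7.73% of all genes were called. The median of the 3 at ZT15 was -0.13 on the log2 scale. At ZT18 and ZT21 edgeR without the block and DESeq2 called 0 of the markers, where edgeR called 6.51% and 6.22% of all genes. Still, 1 xylem and 1 phloem marker at ZT18 and 2 phloem markers at ZT21 had an unadjusted p under 0.05. With the replicate block 1 and 2 phloem markers were lower on the shaded side, where 17.4% and 17.5% of all genes were called. The phloem sums were 152 to 215 CPM shaded and 193 to 236 CPM lit at ZT18, and 123 to 192 CPM and 157 to 253 CPM at ZT21. At field ZT16, 2 of the 10 epidermis markers were higher on the west (5.78% of all genes were called) and 4 had an unadjusted edgeR p under 0.05. With the replicate block 5 were higher on the west, when 4289 of all 34315 genes were called. The list had a median of 0.36 on the log2 scale, and the marker sum ranged from 273 to 419 CPM on the west and from 247 to 324 CPM on the east. The phloem sum at field ZT16 had the lower mean on the west, at 249 against 299.9 CPM. The part of these tissues in the IAA14-like differences was not tested.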

How the data were processed

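Polyadenylated RNA of 108 phototropism and 72 heliotropism libraries was sequenced as single-end reads. The authors filtered reads by quality, built a transcriptome from the Ha412HOv2.0 genome annotation with Cufflinks 2.2.1 and assigned the reads with Salmon 1.4.0. They deposited estimated counts without normalization, of which 46.9% (phototropism) and 44.6% (heliotropism) of values were whole, and none of IAA14-like. They also deposited normalized CPM, a signal made with edgeR, which for IAA14-like was within 3.28% and 1.22% of the CPM computed here and was used as an alternative in the rhythm test. Each library's depth is the sum of its estimated counts. Labels gave the side, time and replicate number of every column, and 0 columns were left over. The study's methods omit ZT4 from the phototropism time points, which the labels include.

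Whole counts had been assumed, so estimated counts were rounded. In R 4.3.3, edgeR 4.0.16 (TMM, quasi-likelihood F test, called at an adjusted p under 0.05 by Benjamini-Hochberg over all genes tested) was fitted to the 32644 genes that reached 10 counts in 6 or more phototropism libraries, or the 34315 that did so in 3 or more heliotropism libraries, with 1 group per side and time. Cosine curves were fitted to CPM per side, and rhythms were compared with limma 3.58.1 on log2 CPM with a prior count of 2. Intervals are 95% intervals of the fitted log2 fold change. P-values measure the spread between libraries, each a pool of 2 plants. The edgeR comparison of the sides, at 1 time of each experiment, and the cosine curve were tried on simulated data. The limma test, the tests over time and of interactions, the replicate block and DESeq2 were not. Alternatives were DESeq2 1.42.0, RLE size factors, no filter, unrounded counts, the libraries of 1 time point, a replicate block, a term for the day, single days and leaving out each replicate number. For the cosine curves they were log2 CPM, the deposited CPM and a prior count of 0.5, and for likeness Spearman correlation and a minimum mean of 1 CPM.

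Same-numbered phototropism libraries of both sides deviated together, with r from 0.24 to 0.75 (median 0.43) over 54 of 54 pairs, all above 0.1. The numbers were therefore taken to pair the sides in the pair counts and in the replicate block. The main tests, with 1 group per side and time, did not use the pairs. The pairing comes from the data, not from a statement in the labels.

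Genes named besides IAA14-like were called AUX/IAA members, the called member with the largest fold change in each other auxin list, the 5 most alike genes in each experiment and the neighbouring gene numbers. Members named for comparison within these groups were picked with their values known. The gene, lists and tests were chosen with earlier results of these data known. No sequence or coordinate of the gene was used here.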

Additional observations from a re-analysis of the deposited data

Results flagged for a closer look

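Side differences of IAA14-like that changed between conditions were picked out by a direct test of the change. Under blue light the shaded over lit difference changed across time (edgeR adjusted p = 7.52e-07), and that at ZT15 differed from that at ZT4 (edgeR adjusted p = 0.00124). In the field the west over east difference changed across the times of day (edgeR adjusted p = 6.35e-10), and the cosine rhythm differed between the sides (limma adjusted p = 1.16e-06). In none of the 30 groups of 6 libraries did a single library stand apart from the others by Dixon's test.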

How the results depend on the processing

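With the replicate block, the phototropism differences at ZT4 (log2 0.46) and ZT12 (log2 -0.55) passed the test, and the block changed no other call. In heliotropism the numbers pair the samples less clearly (27 of 36 pairs with an r over 0.1, although all 36 correlate best with their own number), and with the block the field differences at ZT4 and ZT20 still missed the threshold (edgeR adjusted p = 0.101 and 0.0642). At field ZT16 the block raised the AUX/IAA genes called from 8 to 11 on the west, with 1 on the east in both fits, the transport genes from 1 and 2 (west and east) to 3 and 2, and the epidermis markers from 2 to 5, all higher on the west, while the count over all genes rose from 1983 to 4289. DESeq2 and unrounded counts, run on the 15 side comparisons, RLE size factors, run on 27 results, and a day term, run on the 6 field side comparisons, changed no direction and no call of this gene. Without the filter on low counts the shaded level over time missed the threshold (adjusted p = 0.0637), and leaving out 1 replicate number at a time gave 0.0527 to 0.172.

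Directions turned only where values were near 0. Leaving out 1 replicate number gave log2 -0.26 to 0.14 at ZT7, where it was 0.14 without replicate 2 and 0.0045 without replicate 6. In the field at ZT0 it gave -0.03 to 0.17 (-0.022 without replicate 1, -0.028 without replicate 2), and the second day alone gave -0.069. At field ZT8 the call was lost on the first day alone (log2 -0.32), with the ZT8 libraries only (-0.54) and without any 1 replicate number (-0.58 to -0.49). At field ZT12 it was lost on the first day alone (0.66) and in 2 of the 3 fits without a replicate number (0.58 to 0.78 over all 3). At ZT20 the second day alone gave a call (0.59). The west peak moved between 18.7 and 19.8 hours after dawn without 1 replicate number, and the east peak was at 22.8 hours on the first and 1.57 hours on the second day. The test between the rhythms missed the threshold on the first day alone (0.0706). By Spearman correlation, 1 of the 5 most alike genes in phototropism was shared. The cause of these changes was not tested, beyond the fewer libraries of single days and left-out numbers.

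The number of genes called among all tested moved as well. At ZT15, ZT18 and ZT21 they were 2525, 2124 and 2030, with lowest values of 1744, 1419 and 1349 with 1 replicate number left out and highest values of 6532, 5681 and 5711 with the block. At field ZT8, ZT12 and ZT16 they were 540, 613 and 1983, with lowest values of 84 (without replicate 2), 63 and 347 (first day only) and highest values of 1782, 2782 and 4289 (replicate block).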

Other observations

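The genes with the next lower and higher gene numbers on chromosome 3 were compared with IAA14-like. Ha412HOChr03g0143121 had an r of -0.20 with it over the phototropism groups and -0.39 over the field groups, and Ha412HOChr03g0143151 had 0.55 and 0.32, where the 95th percentile of r over the 15613 genes compared was 0.47 in phototropism and 0.64 in the field. Ha412HOChr03g0143151 reached at most 97.9 and 120.0 counts in a library, and its log2 fold changes of shaded over lit were -1.49 at ZT18 (edgeR adjusted p = 0.508) and -1.15 at ZT21 (edgeR adjusted p = 0.637). Neither gene was called between the sides at any time of either experiment. At ZT15 the log2 fold changes were 0.16 for Ha412HOChr03g0143121 (edgeR adjusted p = 0.858) and -0.29 for Ha412HOChr03g0143151 (edgeR adjusted p = 0.947), and at field ZT16 they were -0.23 (edgeR adjusted p = 0.686) and 0.88 (edgeR adjusted p = 0.791).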
